A study of Mus musculus with 267 samples.

Results

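Open chromatin regions that lay in exons, in untranslated regions (UTRs) or at gene ends were described here in bone marrow-derived macrophages (BMDMs) of 5 inbred mouse strains. The regions were chosen by the authors' HOMER annotation alone, as those annotated neither as promoter nor as intron nor as intergenic, and no measured value entered the choice. Over the 5 strain tables this gave 19525 of 305626 regions, namely 5201 of 67742 in C57BL/6J (C57), 3084 of 54022 in BALB/cJ (BALB), 3942 of 68932 in NOD/ShiLtJ (NOD), 3648 of 60175 in PWK/PhJ (PWK) and 3650 of 54755 in SPRET/EiJ (SPRET). Each region spans 1000 bp around a peak of accessible chromatin (ATAC-seq). In C57 they comprised 2217 exon regions, 1201 regions at a transcription termination site (TTS, the class of gene ends), 812 in 3' UTRs, 694 in 5' UTRs and 277 in exons of non-coding transcripts.

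Marrow cells were grown into macrophages for 7 days with the growth factor M-CSF, and were then left untreated (basal) or held for 24 h in interleukin-4 (IL-4), a cytokine, at 20 ng/mL. Chromatin immunoprecipitation with sequencing (ChIP-seq) gave 20 libraries each of the histone marks H3K27ac, H3K4me2 and H3K4me3, which is 2 for each strain and condition, and 28 libraries of RNA polymerase II (Pol II, 15 basal and 13 at 24 h). None of the 5 strains carried an engineered allele, basal cells of the same strain were the control, and a group of cultured cells from inbred mice samples 1 genotype. The labels call the libraries biological replicates without saying which animals they came from, so p-values measure the spread between these libraries.

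H3K27ac is deposited at active promoters and enhancers, H3K4me3 sits at transcription start sites and H3K4me2 at start sites and enhancers alike. Pol II pauses just after the start of a gene and again past its end, where the transcript is cleaved. IL-4 acts in macrophages through the transcription factor STAT6 and later through EGR2 and PPARg, on chromatin already held open by PU.1 and C/EBP factors. A peak of open chromatin inside an exon or at a gene end can be an internal start site, an enhancer of the same or a neighbouring gene, or the boundary of the transcribed unit.

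Sequences of 30 bases are shown for some of the regions whose H3K27ac moved furthest and which held a short motif of STAT6, PU.1 or AP-1 in their central 200 bp. They were read from mm10 on the strand given, and the capitals mark the motif. The first 3 regions gained H3K27ac and hold the STAT6 motif TTCNNNNGAA, a palindrome, which was found in 4.84% of all 29462 regions present in the 5 strains.
Clec16a gene end, chr16:10745433-10745462, plus strand: gttgtcttaaTTCCTTGGAAgtccagccat
Trip4 gene end, chr9:65828576-65828605, plus strand: agacattctgTTCTTGTGAAattgagccct
Slc26a8 3' UTR, chr17:28637892-28637921, plus strand: cagggaggccTTCACTGGAAatctgttgaa
The next 5 regions lost H3K27ac and hold the PU.1 motif AGGAAGT, searched on both strands and found in 21.5% of all regions.
Asap1 gene end, chr15:64085922-64085951, plus strand: tgtgaacagacAGGAAGTgtactagctctc
Stau2 gene end, chr1:16228333-16228362, minus strand: tggtgcccttggAGGAAGTaagcttggtta
Cebpd gene end, chr16:15890111-15890140, minus strand: aagtgtccccaaAGGAAGTgggagacatat
Bpifb9b exon 7, chr2:154314096-154314125, minus strand: cataggactctaAGGAAGTactcactgttc
Nisch 3' UTR, chr14:31183776-31183805, minus strand: tttgagtctgtgAGGAAGTttccctgacct
The AP-1 motif TGANTCA was searched on both strands and found in 16.03% of all regions matched between the strains. It was also in the rises Adcy4, Mir6977 and Slc26a8 and the falls Stau2, Cx3cr1 and Gga1, which are not shown for it. The last sequence is its match at the Cish gene end, which gained most Pol II.
Cish gene end, chr9:107303298-107303327, plus strand: cccccagctctTGAGTCAtttagtaggaaa

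The annotation was checked against RefSeq genes of mm10. The centre of 99.8% of the C57 exon regions lay in a RefSeq exon and that of 98.3% of the TTS regions lay within 1 kb of a gene end. The class of 5' UTR regions is largely a class of start sites, since 90.5% of its C57 centres were within 1 kb of a gene start, against 26.3% of exon regions, 13.2% of TTS regions and 0.985% of 3' UTR regions. In C57, 503 of the 2217 exon regions were in a first exon and 461 in a last one.

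Libraries held 4691644 to 21973750 tags, and the authors scaled each to 10000000, so that 16 normalized tags stood for 7.51 to 35.2 reads. The exon, UTR and gene-end regions took 4.72% to 6.52% of the H3K27ac reads that fell in regions and 7.75% to 12.1% of those of Pol II. The share of all H3K27ac tags that fell in regions was lower at 24 h in every strain, from 62.5% ± 4.10 (SD, n = 2) to 40.7% ± 3.51 in C57 and from 49.7% ± 1.87 to 45.7% ± 8.68 in SPRET, with the other strains between. It was 54.9% ± 5.25 and 42.9% ± 20.1 in BALB, where the 24 h libraries stood far apart from each other. Because every value is scaled to the whole library, a fall in this share lowers the summed tags of the regions, but not each region alike. In C57 the median H3K27ac of promoter regions went from 91.8 to 61.7 tags, and that of exon regions from 3.82 to 5.925. A single scaling factor for each library need not remove such a shift. The part of this shift in a result cannot be told apart from a change in the chromatin itself. Fewer cells with a mark and less of it per cell cannot be told apart either. Promoter regions were found for 7 to 9 of 10 macrophage markers, with a median H3K27ac of 275 to 572 normalized tags in basal cells, and all of them reached 16 tags there. Markers of T cells, B cells and fibroblasts had at most 1 promoter region a strain, none above 8.03 tags, and those of dendritic cells reached 16 tags in 1 region each of PWK and SPRET at 24 h (21.4 and 46.0). Markers of neutrophils, a cell of the same lineage, had 1 to 3 promoter regions a strain with up to 230 tags (SPRET basal), and the part of such cells in the results was not tested.

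The 5 classes carried different marks before IL-4 was added. Since all regions are 1000 bp long, their normalized tags can be compared directly. The 5' UTR regions looked like promoters, with a median of 410 ± 71.0 normalized tags of H3K4me3 (mean ± SD of the library medians, n = 10), against 410 ± 34.7 at promoters and 3.37 ± 0.790 in introns. Their H3K27ac was 101 ± 31.5, against 98.7 ± 15.3 at promoters, with the strains on both sides, from 60.7 against 91.8 in C57 to 141 against 111 in SPRET. They fell short of promoters in Pol II, with 74.1 ± 23.2 against 90.9 ± 21.8 tags (n = 15), and the class was the lower of the pair in 15 of 15 libraries.

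Gene ends and 3' UTRs held Pol II without start-site marks. TTS regions had a median of 34.5 ± 8.11 normalized tags of Pol II and 3' UTR regions 23.6 ± 4.76, against 14.9 ± 2.18 in introns and 7.03 ± 1.40 in intergenic regions, and both classes were above introns in 15 of 15 libraries. Their H3K4me3 was 2.94 ± 0.783 and 2.62 ± 0.669, no higher than the introns' 3.37. H3K27ac at TTS regions (16.8 ± 5.77) and 3' UTR regions (15.3 ± 5.26) was below the introns' 25.1 ± 5.91 in 10 of 10 libraries, although the standard deviations over libraries overlap.

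Exon regions were a mixture. Their H3K4me3 median was 18.9 ± 10.3 tags, above introns in 10 of 10 libraries, while their H3K27ac (16.3 ± 7.92) was below introns in 10 of 10. Within C57 their H3K27ac went from 20.2 tags within 500 bp of a gene start to 2.39 between 5 and 20 kb from one. Over the strains, H3K4me3 at exon regions was 259 to 504 within 500 bp of a gene start and 1.22 to 4.26 between 5 and 20 kb. Exons of non-coding transcripts lay between, with 24.1 ± 4.85 tags of H3K27ac, 10.1 ± 2.44 of H3K4me3 and 26.8 ± 6.61 of Pol II.

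**Figure D1:**
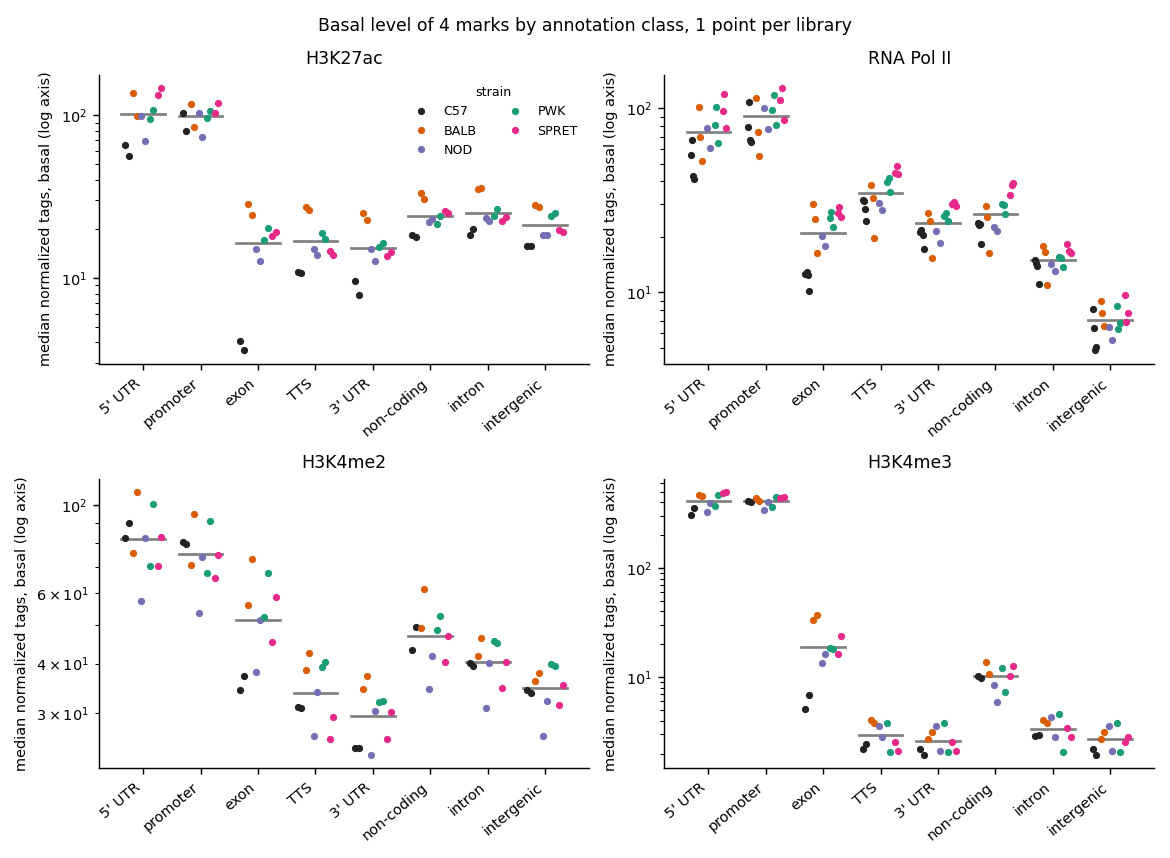
Basal normalized tags (log axis) of each library, as the median over the regions of a class, for the 4 marks. The 5' UTR class sits with promoters for H3K4me3 (410 and 410), while TTS and 3' UTR classes sit with introns for H3K4me3 and above introns for Pol II (34.5 and 23.6 against 14.9).

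Exon regions had a wide range between strains. The basal H3K27ac median of exon regions was 3.82 normalized tags in C57, against 13.8 in NOD, 18.5 in SPRET, 18.8 in PWK and 26.4 in BALB. The tables hold different regions in each strain, so these levels describe the lists and not the same exons.

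The low level in C57 went with regions whose chromatin was annotated as open only at 24 h. Of the 2217 C57 exon regions, 1061 (47.9%) were open only at 24 h, against 19.9% in BALB, 11.01% in NOD, 25.8% in PWK and 26.1% in SPRET. These 1061 regions had a basal H3K27ac median of 1.40 ± 0.0495 tags (n = 2) and 2.92 ± 0.516 at 24 h, against 14.6 ± 0.509 and 12.9 ± 0.283 at the 797 C57 exon regions open in both conditions. H3K4me2 showed the same contrast, with 9.37 ± 1.69 against 64.5 ± 3.39 basal tags, and 77.8% of the 1061 stayed below 16 H3K27ac tags in every library, against 42.7%. A PU.1 peak at 24 h lay on 17.8% of them, against 58.1%. Of the 1061, 716 (67.5%) had no region of another strain within 500 bp, against 58 (7.28%) of those open in both conditions. Over all C57 regions open only at 24 h, 41.9% had no such counterpart. The median GC content of their central 200 bp was 63.5%, against 61.5%. Why these regions stood apart in C57 was not tested.

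**Figure D2:**
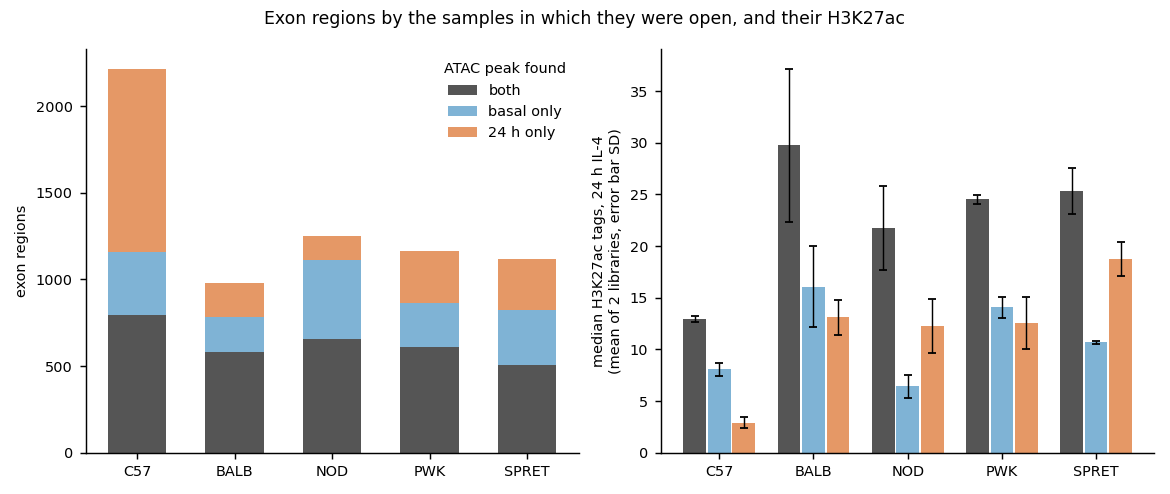
Number of exon regions in each strain (left) by the samples in which their chromatin was annotated as open, and their median H3K27ac in normalized tags at 24 h of IL-4 (right, mean of 2 libraries with the SD as error bar). The 1061 C57 regions open only at 24 h sit at 2.92 tags, and those of the other strains between 12.3 and 18.8.

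The response to IL-4 was tested in regions present in all 5 strains. Region centres within 500 bp of each other were matched, which gave 29462 regions, of which 1335 carried an exon, UTR, gene-end or non-coding annotation in all 5 tables (1220 genes, with 1267 in the same class in every strain). They comprised 409 TTS, 353 exon, 286 3' UTR, 183 5' UTR and 104 non-coding regions. Each region was tested over the 5 strains together with limma on log2(normalized tags + 1), with strain as a term and p-values adjusted by Benjamini-Hochberg over all 29462 regions. On this scale the fold change of a region with few tags is understated.

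With library totals as deposited, IL-4 lowered H3K27ac at more of these regions than it raised it, an excess that median-ratio scaling removed. As deposited, 88 of the 1335 were called higher (6.59%), where 8.01% of all regions were, and 412 lower (30.9%), where 32.6% of all regions were. The median region of the whole table moved by -0.31 on the log2 scale for H3K27ac, by -0.53 for H3K4me2, by -0.10 for H3K4me3 and by 0.01 for Pol II. After median-ratio scaling, which sets that shift near 0, 200 were called higher and 167 lower, beside 15.9% and 15.5% of all regions. Called the same way under both were 88 that rose and 167 that fell. The median change of the 1335 was -0.29 as deposited and 0.03 after scaling, next to -0.31 and 0.01 for all regions. As deposited and with the replicate number as a block, 125 were higher and 563 lower, beside 11.06% and 45.59% of all regions.

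Pol II rose and fell at similar numbers of regions as deposited. It was higher at 114 and lower at 104 of the 1335, beside 7.77% and 8.46% of all regions, and after median-ratio scaling at 141 and 125, beside 9.71% and 10.4%. With the replicate number as a block, 139 were higher and 209 lower, beside 10.2% and 17.1% of all regions.

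The methylation marks depended on the scaling. H3K4me2 was called higher at 37 and lower at 946, beside 1.85% and 74.4% of all regions, and after median-ratio scaling higher at 84 and lower at 18, beside 5.91% and 1.4%. H3K4me3 was higher at 73 and lower at 232, beside 5.27% and 17.6%, and after scaling higher at 74 and lower at 42, beside 5.31% and 2.37%. Called the same way under both scalings were 37 that rose and 18 that fell for H3K4me2, and 65 and 42 for H3K4me3. Leaving out single libraries moved the 305 H3K4me3 calls to between 151 and 378. In all 4 marks the shares of the 1335 were thus near those of the whole table.

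Calls were counted in each class, beside 40.6% of all regions called for H3K27ac and 16.2% for Pol II. Of the 5 classes gene ends had the highest share for H3K27ac (178 of 409, 43.5%), under the 45.4% of introns and 46.8% of intergenic regions. For Pol II it was 94 of 409 (22.98%), where introns had 20.4% and intergenic regions 20.9%, with 33 higher and 145 lower for H3K27ac and 47 each way for Pol II. In exon regions 24 were higher and 89 lower for H3K27ac, of 353, and 20 and 15 for Pol II. In 3' UTRs 15 and 97 of 286 were called for H3K27ac and 22 and 27 for Pol II. At 5' UTR regions 4 of 183 rose in H3K27ac and 60 fell, none rose in H3K4me3 and 75 fell (41.0%), next to 40.7% that fell at promoters. The H3K4me3 falls at 5' UTRs shrank to 13, with 3 rises, after median-ratio scaling. Exons of non-coding transcripts had 13 Pol II rises and 1 fall among 104, a split that stayed at 17 and 1 after scaling. No difference between classes was tested.

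**Figure D3:**
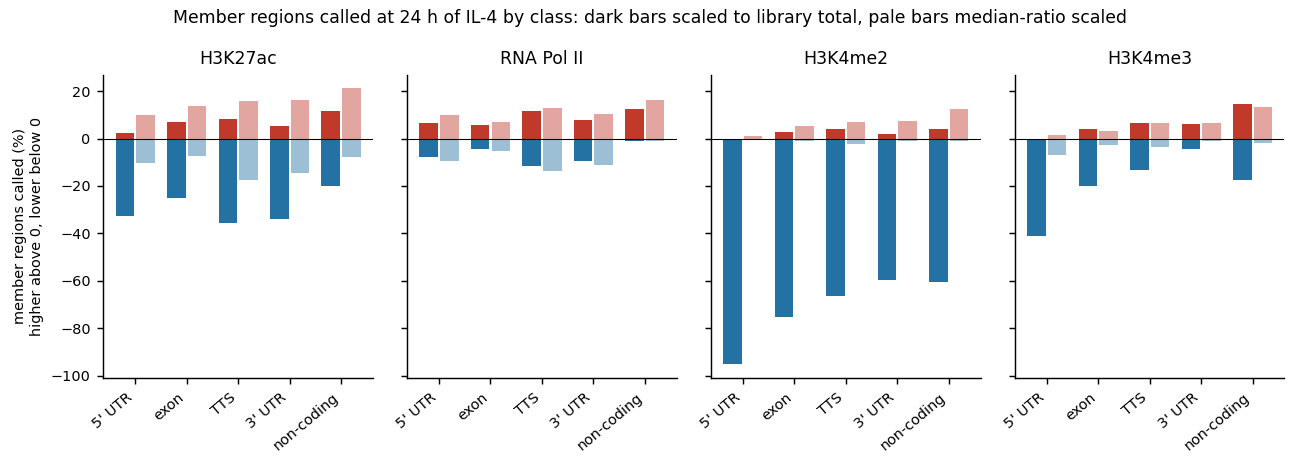
Percent of the matched regions in each class that limma called higher (red, above 0) or lower (blue, below 0) at 24 h of IL-4, for each mark, as deposited (dark bars) and after median-ratio scaling (pale bars). Falls of H3K4me2 reach 95.1% of 5' UTR regions as deposited and nearly vanish after scaling, while the Pol II bars differ little between the scalings.

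The largest rise of H3K27ac was at the end of Rmi2, which encodes a subunit of a complex that resolves DNA crossovers, on chromosome 16 (chr16:10843696-10844696, mm10). The 10 basal libraries had 2.63, 9.11 and 14.1 normalized tags (lowest, median and highest) and the 10 libraries at 24 h had 85.1, 185 and 328. No basal library came near any library at 24 h. The change was 4.46 ± 0.23 on the log2 scale (SE, limma, adjusted p 1.43e-12). Pol II rose with it, from 0.760, 3.56 and 29.95 to 29.6, 104 and 165 tags (4.32 ± 0.28, adjusted p 1.97e-13), and only the highest basal library touched the range at 24 h. On the same chromosome the gene end of Clec16a (chr16:10744891-10745891), whose nearest gene start is that of Socs1, the feedback inhibitor of cytokine signalling, went from 0.660, 3.02 and 6.61 tags to 22.1, 27.03 and 65.8 (3.10 ± 0.27, adjusted p 7.89e-09). The groups did not overlap there either.

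Cish, a STAT-induced inhibitor of cytokine receptors, gained all 4 marks at its gene end (chr9:107302744-107303744). H3K27ac was 0.660, 3.15 and 6.78 tags in basal libraries and 8.62, 33.7 and 78.1 at 24 h (3.08 ± 0.34, adjusted p 3.06e-07). Pol II was 0, 1.03 and 5.62 tags before and 9.23, 61.8 and 159 after (4.82 ± 0.30, adjusted p 9.27e-14), its largest rise at any of the 1335. For both marks the groups were apart in every strain. H3K4me2 went from 0, 4.12 and 17.9 to 10.4, 22.4 and 76.9 tags (2.44 ± 0.24, adjusted p 1.35e-20), also its largest rise. H3K4me3 stayed low, at 0, 0.350 and 3.40 before and 0.900, 2.505 and 10.5 after (1.39 ± 0.34, adjusted p 0.00596), with the libraries of 3 strains overlapping.

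Of the other 7 of the 10 largest rises 3 were at gene ends, 2 in 3' UTRs, 1 in a coding exon and 1 in a non-coding exon. The gene end of Trip4, close to the start of Zfp609, went from a median of 5.82 to 49.3 tags (2.93), that of Adcy4, close to the leukotriene receptor gene Ltb4r1, from 13.5 to 56.5 (2.12), and that of the microRNA Mir6977 from 16 to 66.3 (1.90). Exon 5 of the non-coding R74862 went from 3.81 to 19.2 tags (2.41). Exon 19 of the 33 of the kinase gene Mink1 went from 2.26 to 11.9 (2.03), and this exon also had the second largest rise of H3K4me2, from 1.69 to 13.1 (2.21). The 3' UTRs of Slc26a8, an anion transporter gene, and of the lectin receptor gene Clec1a went from 14.7 to 62.2 (1.84) and from 8.10 to 46.0 tags (1.80). The mean was higher at 24 h in 5 of 5 strains at each of the 10 regions with the largest rises, and the libraries overlapped in 1 strain at Mink1 and in none at the others.

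The largest fall of H3K27ac was at the end of Trmt1, a tRNA methyltransferase gene whose end lies beside the start of Lyl1, a haematopoietic transcription factor gene (chr8:84699469-84700469). Basal libraries had 41.2, 156 and 297 tags and libraries at 24 h 6.73, 25.4 and 59.1 (-2.28 ± 0.20, adjusted p 8.36e-09). The pooled ranges overlapped but within each of the 5 strains the groups did not. This region also had the largest fall of H3K4me2, from a median of 60.4 to 21.4 tags (-1.32 ± 0.18, adjusted p 1.99e-10, and -0.81 after median-ratio scaling). The 3' UTR of Abhd15, a gene of lipid metabolism, went from 79.0, 114 and 285 to 12.7, 30.0 and 48.6 tags (-2.28 ± 0.27, adjusted p 9.49e-07), and its Pol II fell by 1.68 on the log2 scale.

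Of the 10 largest falls Cd14 and Cx3cr1 were on the list of macrophage identity genes. Exon 2 of Cd14, the co-receptor for bacterial lipopolysaccharide, had 439, 613 and 947 tags of H3K27ac before and 72.2, 157 and 226 after (-2.05 ± 0.19, adjusted p 1.49e-08), with no overlap between any basal and any 24 h library. The 3' UTR of Cx3cr1, the receptor for fractalkine, went from 32.6, 105 and 194 to 7.64, 31.5 and 49.2 (-1.86 ± 0.24, adjusted p 2.12e-06), and its fall of Pol II was the largest, from 19.8, 36.2 and 50.1 to 1.82, 7.54 and 12.2 (-2.03 ± 0.21, adjusted p 4.66e-09). The gene end of Cebpd, which encodes C/EBP delta, went from a median of 368 to 122 tags (-1.68). A region in the 3' UTR of Nisch, 15108 bp from the start of the scavenger receptor gene Stab1, went from 366 to 125 (-1.88). The gene ends of Gga1, Stau2 and Asap1 fell by 2.01, 1.64 and 1.62, and exon 7 of the 15 of Bpifb9b fell by 1.69. All 10 of these falls were lower in 5 of 5 strains with no overlap within a strain, and all 20 named rises and falls were called under median-ratio scaling as well.

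**Figure D4:**
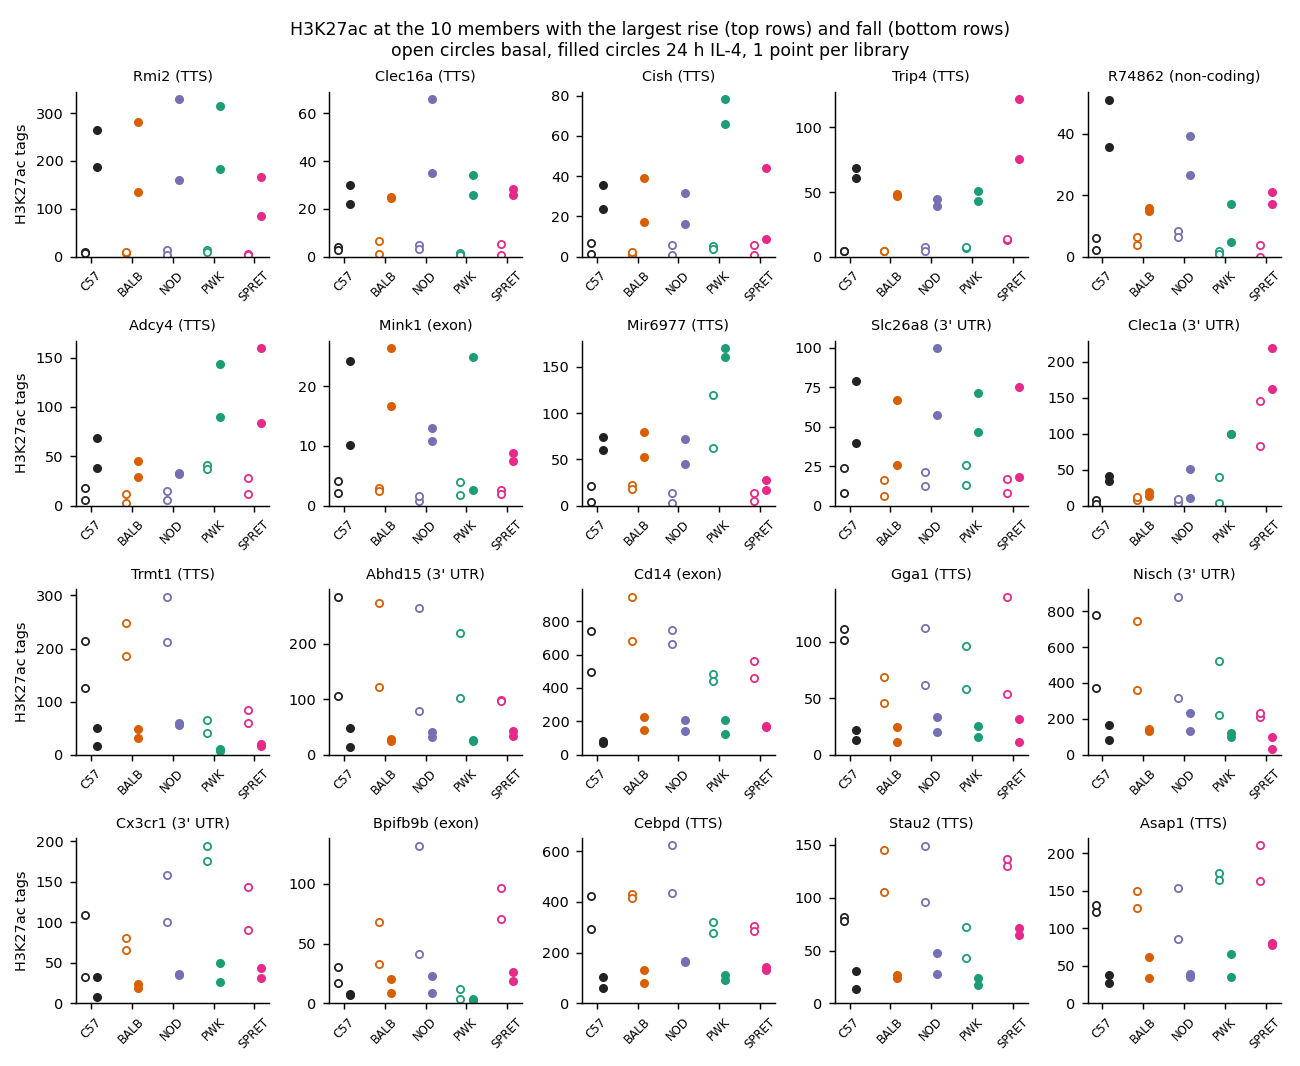
H3K27ac of each library (normalized tags, linear axis with its own range in each panel) at the 10 regions with the largest rises and the 10 with the largest falls, basal (open circles) and at 24 h of IL-4 (filled circles), by strain. Rmi2 moves from 2.63 to 14.1 tags up to 85.1 to 328, and Cd14 from 439 to 947 down to 72.2 to 226.

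Where both H3K27ac and Pol II were called they moved the same way, with 1 exception. Of the 1335 regions, 46 were called higher in both, 91 lower in both, none higher in H3K27ac and lower in Pol II, and 1 the reverse. Only H3K27ac was called at 362, only Pol II at 80 and neither at 755. Over all regions the corresponding counts were 1266 higher in both, 2329 lower in both, 3 and 31 in opposite directions. The 1 exception was the gene end of Irf4, a transcription factor that IL-4 induces (named after its values were seen, and also on the list of IL-4 induced genes). Its Pol II went from 2.90, 10.9 and 30.1 to 20.1, 53.9 and 70.1 tags (1.90 ± 0.24, adjusted p 4.12e-07). Its H3K27ac went from 11.8, 28.4 and 38.2 to 9.69, 15.4 and 29.4 (-0.65 ± 0.20, adjusted p 0.00977), which was no longer called after median-ratio scaling (-0.33, adjusted p 0.172).

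**Figure D5:**
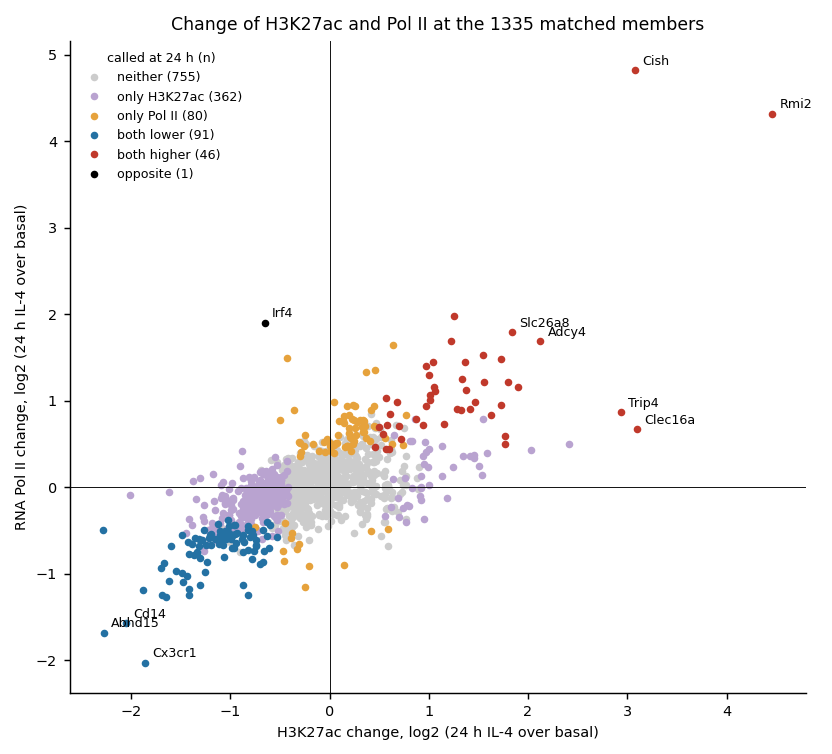
log2 change of H3K27ac (x) and of Pol II (y) at 24 h of IL-4 for the 1335 regions, with calls in both marks coloured. Of the regions called in both, 46 lie at the upper right, 91 at the lower left and 1, Irf4, at the upper left.

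Among the regions with the largest change in the remaining marks, Pol II rose in exon 5 of the 11 of Creb5, a transcription factor of the CREB family, from a median of 12.8 to 57.5 tags (1.98 ± 0.32, adjusted p 2.49e-05). Nudt18 gained, in its 3' UTR, H3K4me2 (6.80 to 16.1 tags, 1.38) and the 5' UTR region of Myc lost it (101 to 39.4, -1.11 ± 0.17, adjusted p 4.32e-08), while Pol II at the Myc region went from 108 to 265 (0.94 ± 0.21, adjusted p 0.00146). H3K4me3 rose at the 3' UTR of Wsb2 (5.66 to 13.6 tags, 1.29) and at the end of Slc39a2, a zinc transporter gene (0.685 to 6.08, 1.27). It fell at the 5' UTR regions of Aif1, a macrophage calcium-binding protein (91.3 to 33.9, -1.48 ± 0.16, adjusted p 3.93e-08), of the interferon-induced Ifit2 (70.4 to 19.6, -1.21, adjusted p 0.0767 after median-ratio scaling) and of Nxpe5 (26.8 to 14.5, -1.08).

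The gene ends or 3' UTRs with most basal Pol II were chosen for that level, which is given as a description. The end of the nuclear non-coding RNA Neat1 had 1044, 2842 and 4528 normalized tags in basal cells and 1711, 3039 and 5115 at 24 h (0.16 ± 0.17, adjusted p 0.640). The end of Malat1, a second nuclear non-coding RNA, had 432, 1431 and 2861 before and 344, 1347 and 2313 after (-0.12 ± 0.18, adjusted p 0.758, and 0.0404 with the replicate block). The groups overlapped in every strain at both. Pol II tags in the 3' UTR of Lyz2, the lysozyme gene, were 492, 1371 and 4251 before and 180, 670 and 1520 after, a fall of 1.16 ± 0.22 on the log2 scale (adjusted p 0.00017).

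Of 45 IL-4 induced genes on a list, 7 had a matched region, among them Cd83, Cish, Irf4, Klf4, Myc and Pparg. Pol II was higher at 5 of the 7, beside 7.77% of all regions, and lower at none, with a median change of 1.07, against 0.01 over all regions. Those higher included Cish, Irf4 and Myc, and exon 3 of Klf4, a transcription factor downstream of STAT6 (24.0 to 53.3 tags, 1.07). H3K27ac was higher at 2 (Cish and Klf4, which rose by 1.02) and lower at 2 (Irf4 and the 3' UTR of Cd83, -0.73), and after median-ratio scaling higher at 4 and lower at none. H3K4me3 was higher at 3, among them Klf4 (122 to 229 tags, 0.86 ± 0.12, adjusted p 5.54e-06). H3K4me2 was higher at 1 and lower at 4 of the 7, under the 74.4% of all regions called lower, and after scaling 1 and 1. At the 3' UTR of Cd83 H3K4me2 was -0.44 as deposited and 0.07 after scaling.

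Of 34 macrophage identity genes, 12 had 14 matched regions. H3K27ac was lower at 6 of the 14, near the 32.6% of all regions, and higher at none, and at 5 and none after scaling. Pol II was lower at 7, beside 8.46% of all regions, and higher at none, and after scaling lower at 7 and higher at 1. The median Pol II change of the 14 was -0.30. The gene end of Tyrobp, which encodes the adaptor DAP12, went from 255, 300 and 430 to 66.2, 136 and 180 H3K27ac tags (-1.28 ± 0.18, adjusted p 8.77e-06), with no overlap, and its Pol II fell by 0.62. The region over the 5' UTR of Mpeg1, the pore-forming perforin-2, went from a median of 661 to 399 (-0.74), and exon 5 of the scavenger receptor gene Msr1 from 228 to 127 (-0.80). The gene end of Csf1r, the receptor for M-CSF, had a change of -0.72 that was not called after scaling (adjusted p 0.0857). H3K4me3 was lower at 6 of the 14, beside 17.6% of all regions (4 after scaling, beside 2.37%), among them Cd14 (-0.81), Lyz2 (-0.92), Mpeg1 (-0.96) and Tyrobp (-0.48). For H3K4me2, lower at 8 as deposited, under the 74.4% of all regions, and at 2 after scaling, the direction turned at Fcgr3, an IgG receptor gene, from -0.40 to 0.11, and under TMM scaling at the 5' UTR of Runx1 from -0.52 to 0.0016.

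Inflammatory and interferon genes had 3 matched regions of 37 genes (Ifit2, Nfkbia and Tlr4), none called for H3K27ac or Pol II as deposited. Under median-ratio scaling 1 was called higher in each of these marks. H3K4me2 was lower at all 3 and at none after scaling, beside 74.4% and 1.4% of all regions. Cell cycle and ribosome genes had 2 of 20, Ccnd1 and Rpl3. H3K27ac was lower at both, at the 5' UTR of Ccnd1 by 0.61 (adjusted p 0.0491, and 0.408 after scaling) and at the gene end of Rpl3 by 1.30 (adjusted p 0.000158), while neither was called for Pol II.

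The study's peak lists of 5 transcription factors were laid over the regions, with an overlap of 1 bp or more counted. At 24 h a PU.1 peak lay on 60.8% of the exon, UTR and gene-end regions (median of the 5 strains), against 70.7% of all regions. The shares were 30.6% against 40.4% for C/EBPb and 28.8% against 46.6% for STAT6, and for these 3 factors and PPARg the regions were below the whole table in 5 of 5 strains. For PPARg the gap ran from 37.5% against 37.7% in PWK to 25.6% against 39.4% in C57. EGR2 went either way, with 30.1% against 38.5% in C57 and a slightly lower share in SPRET, but 45.1% against 44.2% in BALB, 21.4% against 20.3% in NOD and 22.1% against 21.5% in PWK. An EGR2 peak lay on 5' UTR regions more often than on any of the other 4 classes in 5 of 5 strains (45.6% to 76.8%). For STAT6 the exon share was below those of the 3' UTR and TTS classes in 5 of 5 strains, in C57 18.2% against 39.4% and 38.1%. A list stands for a group and grows with the depth of its libraries, so that strains and factors cannot be ranked by these shares.

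Of the 1335, 36 had a STAT6 peak at 24 h in 3 or more strains and in no strain at basal. H3K27ac was higher at 16 of them and lower at 2 (26 and 1 after median-ratio scaling), Pol II higher at 11 and lower at none (14 and none), and H3K4me2 higher at 12 and lower at 9 (17 and none). Among all 827 matched regions with that STAT6 pattern the shares as deposited were near these, with 49.2% higher and 5.56% lower for H3K27ac, 33.7% and 1.21% for Pol II and 22.1% and 28.2% for H3K4me2. At the 575 with a STAT6 peak at 24 h in 3 or more strains, whatever the basal lists held, H3K27ac was higher at 45 and lower at 234 (104 and 105 after scaling). Of the 14870 such regions in the whole table, 10.9% were higher and 39.4% lower as deposited. Clec16a, Cish, Trip4 and Slc26a8 had a STAT6 peak in 0 strains at basal and in 5 at 24 h. Trip4 also gained a PU.1 peak in 5 of 5 strains, one of 6 regions that gained PU.1 in this way, at all of which H3K27ac was called higher, beside 79.1% of the 115 such regions in the whole table. For PPARg, 102 regions gained a peak, with H3K27ac higher at 22 and lower at 23 (30 and 14 after scaling), beside 19.8% and 23.3% over the whole table.

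Motifs in the central 200 bp followed the direction of change at the named regions only in part. TTCNNNNGAA was in 3 of the 10 largest rises and in 0 of the 10 largest falls. AGGAAGT was in 0 of the 10 rises and in 5 of the 10 falls (Asap1, Stau2, Cebpd, Bpifb9b and Nisch). TGANTCA was in 4 of the rises (Cish, Adcy4, Mir6977 and Slc26a8) and 3 of the falls (Stau2, Cx3cr1 and Gga1). Over the 1335, AGGAAGT was in 27.4% of the 412 called lower, in 9.09% of the 88 called higher and in 16.4% of the 835 not called. TTCNNNNGAA was in 2.91%, 6.82% and 4.19% of the same groups. GTGGGCG, the core of the EGR motif, was in 4.13%, 6.82% and 4.55% of these groups and in 5.45% of all regions. TTGCNNAA, a form of the C/EBP motif, was in 10.4%, 12.5% and 9.46% of them and in 10.8% of all regions. The shares of 6.82% each stand for 6 of the 88 regions called higher, and no difference between the groups was tested. All were searched on both strands, and a match is a run of letters, not a bound site.

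The strains were compared by the change of H3K27ac within each. In the test of whether the change differed between strains, none of the 1335 was called, as of all regions (0% called). An unadjusted p under 0.05 was found at 23 of the 1335, a count given without its share over all regions. edgeR called none and DESeq2 16 of all regions and none of the 1335. With the replicate number as a block, used because same-numbered H3K27ac libraries deviated together, 24 of the 1335 were called, beside 1.86% of all regions.

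The 5 with the largest F under the block were read in detail. The end of Gm16576 (F = 11.3, adjusted p 4.22e-06, limma) had 3.43 and 6.26 tags in basal PWK and 46.5 and 43.0 at 24 h, while SPRET had 64.1 and 188 before and 91.7 and 113 after. The 3' UTR of Amigo3, a neuronal adhesion gene (F = 10.8, adjusted p 9.47e-06), had 11.5 and 33.5 tags in C57 before and 5.94 and 3.94 after, while PWK had 61.8 and 43.1 before and 205 and 115 after. C57 and PWK thus moved in opposite directions.

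The end of Ulk2, an autophagy kinase gene (F = 10.6, adjusted p 1.2e-05), rose in PWK from 3.43 and 15.7 to 57.2 and 54.4 tags and went in C57 from 14.9 and 13.6 to 3.40 and 7.22. The 3' UTR of Clec1a (F = 7.47, adjusted p 0.00136) had a higher mean at 24 h in all 5 strains, by 2.92 on the log2 scale in PWK and 0.72 in BALB. The second exon of 1600002D24Rik, a non-coding transcript (F = 7.37, adjusted p 0.00156), had 322 and 26.2 tags in NOD before and 75.2 and 3.94 after, so its replicates were far apart and its call rests on the block. Without the block the unadjusted p was 0.0105, 0.0048, 0.000859, 0.159 and 0.749 for the 5, and the adjusted p was 1.00 for each.

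Of the other 19, some fell everywhere but in SPRET (chosen after their values were seen). The 3' UTR of Jam3, a junction adhesion gene, had 56.2, 69.8, 65.2 and 52.9 tags (means) in basal C57, BALB, NOD and PWK and 10.4, 17.7, 16.7 and 16.2 at 24 h, and in SPRET 2.92 and 3.82. The end of Dll4, a Notch ligand gene, went from 59.3, 62.8, 37.7 and 65.2 to 15.6, 16.7, 15.9 and 25.4, and in SPRET from 94.9 to 118. SPRET was thus at the bottom of the range at Jam3 and at the top at Dll4.

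Within single strains, 2 libraries against 2 left little room for a test. With limma in each strain alone, H3K27ac was called at 0 of the 5201 C57 regions (0% of all C57 regions), 51 of 3084 in BALB (beside 2.26%), 2 of 3942 in NOD (0.0566%), 18 of 3648 in PWK (0.535%) and 34 of 3650 in SPRET (1.19%). With the replicate block the counts were 1565 in C57 (38% of all regions), 169 in BALB (7.67%), 622 in NOD (19.9%), 261 in PWK (9.39%) and 225 in SPRET (7.03%). In C57, where limma called none, 955 of the 5201 had an unadjusted p under 0.05, edgeR called 0 with library totals and 14 with TMM scaling, and DESeq2 99. These C57 counts are given without their shares over all C57 regions, so they are no result about these regions in particular. The fit of 1 strain has 2 residual degrees of freedom, or 1 with the block, so a count of 0 says nothing of absence.

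A fold rule gave counts that do not rest on a test. Group means of normalized tags plus 1 had to differ 2.5-fold with 16 tags or more in either group. In C57, 110 regions were past it upward and 296 downward (167 and 120 after median-ratio scaling), beside 3.46% and 7.55% of all C57 regions. In BALB 62 and 117 were (106 and 52), beside 2.84% and 5.13%, and in NOD 88 and 152 (133 and 90), beside 3.24% and 5.14%. In PWK 95 and 71 were (136 and 35), beside 3.1% and 3.01%, and in SPRET 78 and 29 (91 and 22), beside 2.64% and 0.939%. As a share of the regions these were 2.12% and 5.69% in C57 and 2.14% and 0.795% in SPRET, below the whole table in both directions. Replicates did not overlap between conditions at 106 and 284 of them in C57 and at 75 and 29 in SPRET. A 2.5-fold gap between means of 2 libraries makes that likely, so these counts add no support to the rule. They were not made over all regions. In BALB the first 24 h library decided the split, since without it 55 were past the rule upward and 454 downward.

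Each strain's largest changes of H3K27ac were mostly at other genes than those of the joint test, which took only regions matched in all 5 strains. Tmem26, Igfbp4, Pex26, Pilra, Rhot2, Map3k5 and Fbxo42 had no region within 500 bp in at least 1 other strain. Abhd15 and Rmi2 had one in every strain and were also among the largest changes of the joint test. In C57 the 5' UTR region of Tmem26 went from 6.78 and 2.85 to 323 and 94.5 tags, and exon 1 of Igfbp4, which binds insulin-like growth factors, from 127 and 439 to 16.1 and 43.3. At Tmem26 the means also rose in NOD (9.43 to 160), PWK (38.5 to 322) and SPRET (23.6 to 190), and BALB had no region. At Igfbp4 the means also fell in BALB (270 to 65.1) and PWK (99.8 to 21.5), and NOD and SPRET had no region. In the 3' UTR of Pex26, a peroxisome gene, H3K27ac rose most in BALB, from 1.47 and 0.600 to 128 and 51.0, and in NOD, from 1.66 and 0 to 80.3 and 43.9. In C57 and SPRET the same region went from means of 2.09 to 57.7 and from 5.00 to 132.

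The largest fall was at Abhd15 in BALB (122 and 274 to 24.1 and 28.1) and at the 5' UTR region of Pilra, an inhibitory receptor gene, in NOD (101 and 41.3 to 7.23 and 8.44). Means at Pilra also fell in C57 (51.4 to 2.685), BALB (38.6 to 5.985) and PWK (40.5 to 11.1), and SPRET had no region. In PWK the end of Rhot2 rose from 0 and 1.57 to 110 and 54.4, and exon 10 of the kinase gene Map3k5 went from 32.6 and 60.3 to 2.02 and 7.64. Means at Rhot2 also rose in NOD (0.81 to 27.3) and C57 (1.035 to 41.1), and BALB and SPRET had no region. The mean at Map3k5 also fell in NOD (103 to 11.9), and C57, BALB and SPRET had no region. In SPRET the end of Rmi2 rose from 5.13 and 2.63 to 166 and 85.1, and the 3' UTR of Fbxo42 went from 41.9 and 14.5 to 1.76 and 2.15. Means at Fbxo42 also fell in NOD (34.0 to 14.8) and PWK (27.4 to 6.09), and C57 and BALB had no region. Regions were eligible only where both libraries of one condition were above both of the other.

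For C57, libraries after 1 h and after 6 h of IL-4 were also made (2 each), and the 29 regions named for H3K27ac in the joint test had a value at each hour. Of the 11 that rose, 7 were above both basal libraries in both libraries at 1 h, 11 at 6 h and 10 at 24 h. Rmi2 had 10.9 and 8.56 tags basal, 234 and 64.4 at 1 h, 339 and 316 at 6 h and 266 and 188 at 24 h. R74862 was not up at 1 h, with 6.11 and 2.14 basal, 2.32 and 2.07 at 1 h, 15.4 and 14.6 at 6 h and 35.7 and 51.2 at 24 h. Mink1 had 4.07 and 2.14 basal, 0.770 and 3.44 at 1 h and 10.2 and 24.3 at 24 h. Of the 18 that fell, 17 were below both basal libraries at 1 h and 18 at 6 and 24 h. The basal and 24 h libraries of C57 were among those that chose the regions, so the 24 h counts are no separate result. The 1 h and 6 h counts are made against the same basal libraries, so they are not independent of that choice either. None of these counts was made over all C57 regions. The median of all C57 regions was 23.1 and 24.2 tags basal, 17.8 and 11.02 at 1 h and 21.6 and 21.9 at 6 h. Their mean was 96.6 and 88.0 basal, 60.3 and 27.8 at 1 h and 70.1 and 69.1 at 6 h. The libraries at 1 h and 6 h thus stood lower over all regions, and the part of this in the early falls was not tested.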

How the data were processed

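H3K27ac, H3K4me2, H3K4me3 and Pol II ChIP-seq were measured in 88 libraries of macrophages from 5 strains, and groups came from the labels (mark, strain, hours of IL-4). The authors mapped each library to its own strain's genome (Bowtie2), moved positions to mm10 and used HOMER for counting, per the study's methods. The deposited signal values are tags in 1000 bp around accessible peaks, brought by the authors to a library total of 10000000, each replicate in its own column. Of 5377124 values, 100% were whole reads within 0.1 read after undoing the scaling, so reads were recovered for count tests. edgeR on these reads called 485 of the 1335 matched regions for H3K27ac, where limma called 500. For the 50 peak lists, the authors kept HOMER peaks reproducible between replicates by IDR, and only positions were used here, not the deposited score. Depth ran from 4691644 to 21973750 tags, counting error is not in the standard errors given, and replicate pairs were not duplicates (lowest chi-square per degree of freedom 2.01).

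Members were taken by the authors' annotation, matched between strains within 500 bp, and tested on log2(tags + 1) by lmFit and trended eBayes (limma 3.58.1, R 4.3.3) with strain and IL-4 as terms, no filter, and Benjamini-Hochberg adjusted p under 0.05 over all regions. TMM and quasi-likelihood tests used edgeR 4.0.16, and DESeq2 1.42.0 was a further alternative. Other alternatives were a pseudocount of 5, a filter on the mean (16 tags, 8 for Pol II), median-ratio scaling, matching within 100 bp, a replicate block, each library left out, and for the fold rule no filter, 32 tags or a 2-fold threshold. Chosen after seeing the data were membership by the C57 table alone and the fold rule without exon regions open only at 24 h. Fits were tested on simulated data. Deviations of same-numbered libraries correlated over 0.1 in 5 of 5 strains for H3K27ac (r 0.261 to 0.492, 1 value a strain, since 2 libraries of a group mirror each other) and for Pol II (0.118 to 0.469), so the number was taken to pair these libraries.

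Named regions were the 10 largest rises and falls of H3K27ac, the 3 largest of each other mark, the 5 largest F between strains, the largest rise and fall of each strain past the fold rule without overlap, the 3 gene ends or 3' UTRs with most basal Pol II, and called members in listed genes, 1 region a gene. The regions and lists were chosen with earlier results of these data known. Motifs were matched as letters in the central 200 bp of mm10. Exon, gene-end and gene-start positions came from RefSeq genes of mm10. Python 3.11.15, pandas 2.3.3, numpy 2.4.6 and matplotlib 3.10.9 were used. Libraries of the Egr2 genotypes and columns of other comparisons were not used here. One named region is counted but not reported singly here.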

Additional observations from a re-analysis of the deposited data

Results flagged for a closer look

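Only Pol II in basal C57 had as many as 4 libraries. These were examined for a library far from the others at 15 named regions and in the medians of the 5 classes. Of these 20 sets of values 3 had one. Chance gives about 1 in 20 for independent sets, but these share the same 4 libraries, so the count cannot be set against that rate. In basal C57 the Pol II level at the end of Rmi2 was 29.95 normalized tags in the first replicate, and the nearest of the other 3 libraries had 2.41. In the same library exon 5 of Creb5 had 52.41 tags, the nearest other having 12.84. The median Pol II level of C57 exons of non-coding transcripts was 18.23 in 1 basal library, below the next at 23.27.

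The H3K27ac change at 24 h of IL-4 differed between strains under the replicate block at 24 of the 1335 regions (limma F test), and the 5 with the largest F were the ends of Gm16576 (F = 11.284) and Ulk2 (10.582), the 3' UTRs of Amigo3 (10.787) and Clec1a (7.466), and an exon of the non-coding 1600002D24Rik (7.3659). Without the block none was called, and the adjusted p was 1.00 for each.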

How the results depend on the processing

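The total counts of regions called in the 5 strains together kept within 1.5 times for H3K27ac under every alternative run and, outside the cases named here, for the other marks. The direction of the H3K27ac calls did not keep, since 88 higher and 412 lower as deposited became 200 and 167 with median-ratio scaling. Pol II went from 218 to 348 under the replicate block. H3K4me2 went from 983 to 102 with median-ratio scaling, 99 with TMM and 99 with DESeq2, and H3K4me3 from 305 to 116, 116 and 123. Same-numbered H3K4me2 and H3K4me3 libraries share only a number (4 of 5 strains correlated over 0.1 in each), and the block gave 1014 and 497. Changes differing between strains went from 0 to 24 under the block. In single strains, C57 went from 0 to 14 (TMM), 99 (DESeq2) and 1565 (block), and BALB from 51 to 33 (filter on the mean) and 169 (block). NOD went from 2 to 4 (pseudocount 5), 4 (filter on the mean), 0 (median-ratio), 7 (edgeR, library totals), 5 (TMM), 50 (DESeq2) and 622 (block). PWK went from 18 to 4 (median-ratio), 32 (edgeR, library totals), 6 (TMM), 37 (DESeq2) and 261 (block), and SPRET from 34 to 17 (median-ratio), 73 (edgeR, library totals) and 225 (block). For the fold rule, no filter gave 795 in C57, 396 in NOD, 311 in PWK and 197 in SPRET, a 2-fold threshold gave 781, 491, 325 and 240 there and 380 in BALB, and 32 tags gave 70 in SPRET. H3K4me2 turned upward at Fcgr3 (0.109 median-ratio, 0.0957 TMM, 0.101 DESeq2), Cd83 (0.0733, 0.0360 and 0.0449) and Runx1 (0.00164 TMM, 0.00574 DESeq2). With single libraries left out, the calls ranged over 429 to 561 for H3K27ac, 189 to 243 for Pol II, 916 to 1053 for H3K4me2, 151 to 378 for H3K4me3, 0 to 0 for the difference between strains, 0 to 16 in C57, 25 to 177 in BALB, 0 to 77 in NOD, 0 to 83 in PWK and 0 to 16 in SPRET, and the fold rule over 425 to 604, 191 to 509, 279 to 418, 228 to 303 and 119 to 194. A lone remaining library was assumed to vary like the others. The H3K4me3 count fell more than 1.5 times without C57 24 h replicate 1 (159), C57 basal replicates 1 (179) and 2 (177), C57 24 h replicate 2 (203), BALB 24 h 1 (203), NOD 24 h 2 (151), NOD basal 2 (156), PWK 24 h 1 (165) or PWK basal 2 (155). The fold rule moved as much without BALB 24 h 1 (509) and basal 1 (273), NOD 24 h 1 (418) and basal 1 (383), PWK 24 h 1 (303) and basal 1 (262), and SPRET 24 h 2 (167) and basal 2 (194). The cause of these moves was not tested. Of the named regions, 14 of 580 leave-one-out values of H3K27ac lost their call, 8 of 440 of H3K4me2, 11 of 240 of H3K4me3 and 0 of 420 of Pol II. Of the calls over the 5 strains together at named regions, the block changed that of Malat1 alone. It made the call of the difference between strains at the 5 regions named for it and the single-strain calls of Tmem26 (adjusted p 0.106 to 4.22e-14) and Igfbp4 (0.117 to 6.15e-13) in C57 and Pilra (0.136 to 3.5e-10) in NOD. Membership by the C57 table gave 613 of 1668 for H3K27ac, within 1.5 times in share. Regions with few reads limit the precision, since 16 normalized tags stood for 7.51 reads in the shallowest library.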

Other observations

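H3K4me3 calls among the 1335 regions were counted by distance from a gene start, with no test of a trend. Within 1 kb of a start 5 of 335 regions were called higher and 129 lower (8 and 17 after median-ratio scaling), and beyond 20 kb 17 of 203 were called higher and 7 lower (15 and 0). The median change was -0.22 within 1 kb and 0.20 beyond 20 kb, and after scaling -0.05 and 0.32. The whole table had the same contrast, with 1.02% higher and 40.4% lower within 1 kb (median -0.22) and 7.38% and 3.12% beyond 20 kb (median 0.19). Levels also differed with distance, and in the strains TTS regions had 233 to 360 basal tags of H3K4me3 within 500 bp of a start and 1.09 to 1.95 beyond 20 kb. Changes far from a start thus rest on few tags. The share of all H3K4me3 tags that fell in regions was lower at 24 h in every strain, in C57 61.1% against 73.5% basal. Its part in the contrast by distance was not tested. Pol II at TTS regions was 82.4 to 122 tags within 500 bp of a start and 16.4 to 36.2 beyond 20 kb.

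Of the 1335 regions, 109 had no PU.1 peak in any strain or condition. H3K27ac was higher at 9 and lower at 9 of them (21 and 5 after median-ratio scaling), with a median change of 0.11, beside 13.3% and 10.99% and a median of 0.10 at the 1192 such regions of the whole table, while at the 1033 with a PU.1 peak at 24 h in 3 or more strains it was higher at 64 and lower at 368 (151 and 153), beside 7.80% and 35.0%. No test was made of the difference.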
